A study of Caenorhabditis elegans with 2 samples.

Results

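The mir-51 family is a group of 6 microRNA (miRNA) genes of Caenorhabditis elegans, mir-51 to mir-56, described here by where the transcription factor SPTF-1 was found around them. The 6 genes were chosen from the 261 annotated miRNA genes because mir-51 and mir-52 lead the miRNA genes in the strength of the nearby peaks. The same peak values that chose the genes are therefore given as a description, with no test. The study profiled SPTF-1, an Sp-type transcription factor with zinc fingers, by chromatin immunoprecipitation and sequencing (ChIP-seq) of sonicated chromatin from whole embryos. There was 1 group with 2 biological replicates, so the data hold no comparison between conditions. All embryos were of strain OP707, which carries the unc-119(tm4063) III allele and the transgene wgIs707, which adds a GFP-FLAG tag to the C-terminal end of SPTF-1. They were mixed-stage embryos, 2.5 hours after synchronization by egg bleaching. The antibody is given as anti-GFP in 1 label and as sptf-1 in another. Whole embryos were used, so the cell types that carry the signal are not resolved.

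miRNAs are short RNAs that are cut from a hairpin precursor and guide an Argonaute protein to messenger RNAs, mostly by pairing of the seed, the bases near the 5′ end. The mir-51 family is a distant relative of the miR-100 family of other animals and is abundant in the worm embryo. Loss of the whole family is known to be lethal in embryos, with a pharynx that fails to stay attached, and cdh-3, which codes for a Fat-like cadherin, is a described target.

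The mature sequences are shown first because they define the family. In each one, read from the RefSeq genome of build WBcel235 (ce11) at the annotated arm, the seed (bases 2 to 8) is in capitals.
miR-51: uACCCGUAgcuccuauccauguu
miR-52: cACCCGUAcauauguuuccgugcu
miR-53: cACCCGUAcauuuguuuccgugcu
miR-54: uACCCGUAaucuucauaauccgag
miR-55: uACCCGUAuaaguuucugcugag
miR-56: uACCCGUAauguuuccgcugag
All 6 share the seed ACCCGUA, and those 7 bases are the only ones of the 22 compared positions that were the same in all 6. miR-52 and miR-53 were the nearest pair, with 23 of 24 bases identical, and their hairpin genes were 79% identical. Mature bases were compared position by position from the 5′ end, without gaps. By that count, from 39.1% (miR-54 and miR-55) to 63.6% (miR-54 and miR-56) were identical in the other pairs. The count is low where a sequence is shifted by a base. miR-55 and miR-56 scored 50%, although most of their bases after the seed line up once a base of miR-55 is skipped. The arm that carries the seed also divides the family. It is the 5′ arm of the hairpin for mir-51, mir-52 and mir-53, and the 3′ arm for mir-54, mir-55 and mir-56.

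The 6 genes lie at 3 loci. mir-51 (WBGene00003279, chrIV:11026013-11026112) and mir-53 (WBGene00003281, chrIV:11027593-11027691) are on the minus strand of chromosome IV with 1480 bases between them, and mir-53 is the upstream one. mir-52 (WBGene00003280, chrIV:14034008-14034107) stands alone on the plus strand, 3007895 bases away from mir-51. mir-54 (WBGene00003282, chrX:13144996-13145094), mir-55 (WBGene00003283, chrX:13144827-13144924) and mir-56 (WBGene00003284, chrX:13144691-13144787) form a cluster on the minus strand of X. Gaps of 71 and 39 bases separate the neighbours in that cluster, which is inside an intron of the protein-coding gene F09A5.3 on the other strand. A second annotated miRNA gene, mir-55b, lies on the plus strand over mir-55.

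The stretches of genome under the strongest SPTF-1 summit of each locus, and under the summit nearest mir-53, are shown because the description below refers to their letters. A summit is the base that the authors' peak caller marked as the highest point of a region. Each stretch is 300 bases of WBcel235 (ce11), 5′ to 3′ on the strand of the miRNA gene, with the summit at base 151. Capitals mark matches to short motifs: in the mir-51 stretch the CACC-type letters GGGTGT (here as the complement, ACACCC) and the B box letters described below, and in the others the GC box core GGGCGG (as CCGCCC) and GAGAGA (as TCTCTC).
mir-51, chrIV:11026049-11026348, minus strand: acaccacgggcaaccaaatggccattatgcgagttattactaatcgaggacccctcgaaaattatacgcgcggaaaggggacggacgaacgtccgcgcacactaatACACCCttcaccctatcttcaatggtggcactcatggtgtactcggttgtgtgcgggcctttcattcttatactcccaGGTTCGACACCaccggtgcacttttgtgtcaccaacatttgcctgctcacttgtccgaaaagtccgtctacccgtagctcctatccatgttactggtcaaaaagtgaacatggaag
mir-52, chrIV:14033836-14034135, plus strand: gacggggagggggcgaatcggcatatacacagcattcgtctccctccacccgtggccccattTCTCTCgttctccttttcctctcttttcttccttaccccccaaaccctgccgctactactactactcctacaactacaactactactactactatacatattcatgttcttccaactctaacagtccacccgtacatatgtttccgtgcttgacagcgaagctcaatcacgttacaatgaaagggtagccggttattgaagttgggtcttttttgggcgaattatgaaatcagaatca
mir-53, chrIV:11027616-11027915, minus strand: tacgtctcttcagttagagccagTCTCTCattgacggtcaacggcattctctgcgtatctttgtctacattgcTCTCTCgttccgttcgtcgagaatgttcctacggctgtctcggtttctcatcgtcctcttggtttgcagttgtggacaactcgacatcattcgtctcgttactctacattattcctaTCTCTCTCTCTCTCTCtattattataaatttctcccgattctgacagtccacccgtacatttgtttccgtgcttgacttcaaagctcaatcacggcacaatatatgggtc
mir-54, chrX:13145081-13145380, minus strand: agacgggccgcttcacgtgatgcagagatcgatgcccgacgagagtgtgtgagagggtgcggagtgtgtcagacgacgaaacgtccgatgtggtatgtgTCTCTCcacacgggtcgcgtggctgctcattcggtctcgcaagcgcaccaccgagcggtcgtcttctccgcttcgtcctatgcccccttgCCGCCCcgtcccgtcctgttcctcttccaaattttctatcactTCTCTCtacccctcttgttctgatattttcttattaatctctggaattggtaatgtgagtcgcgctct
The mir-51, mir-52 and mir-53 stretches run into the hairpins, so that the seed can be read in them as acccgta. The mir-54 stretch ends before the seed, which is on the 3′ arm.

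All 6 genes had a summit of the authors' thresholded list of 2430 peaks within 2000 bp, against 65 of 261 annotated miRNA genes (24.9%). Since the family was chosen from these peaks, nothing is read from the difference in share. The 6 genes do not stand for 6 independent observations, because 7 distinct thresholded summits served all of them: 1 at the mir-51 and mir-53 locus, 3 at mir-52 and 3 at the mir-54 to mir-56 cluster. Within 200 bp of the hairpin, 3 of the 6 genes kept a summit (mir-51, mir-52 and mir-54), against 15 of 261 miRNA genes (5.75%). These 3 had their summit on the upstream side, 86, 22 and 136 bp from the 5′ end of the hairpin.

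**Figure D1:**
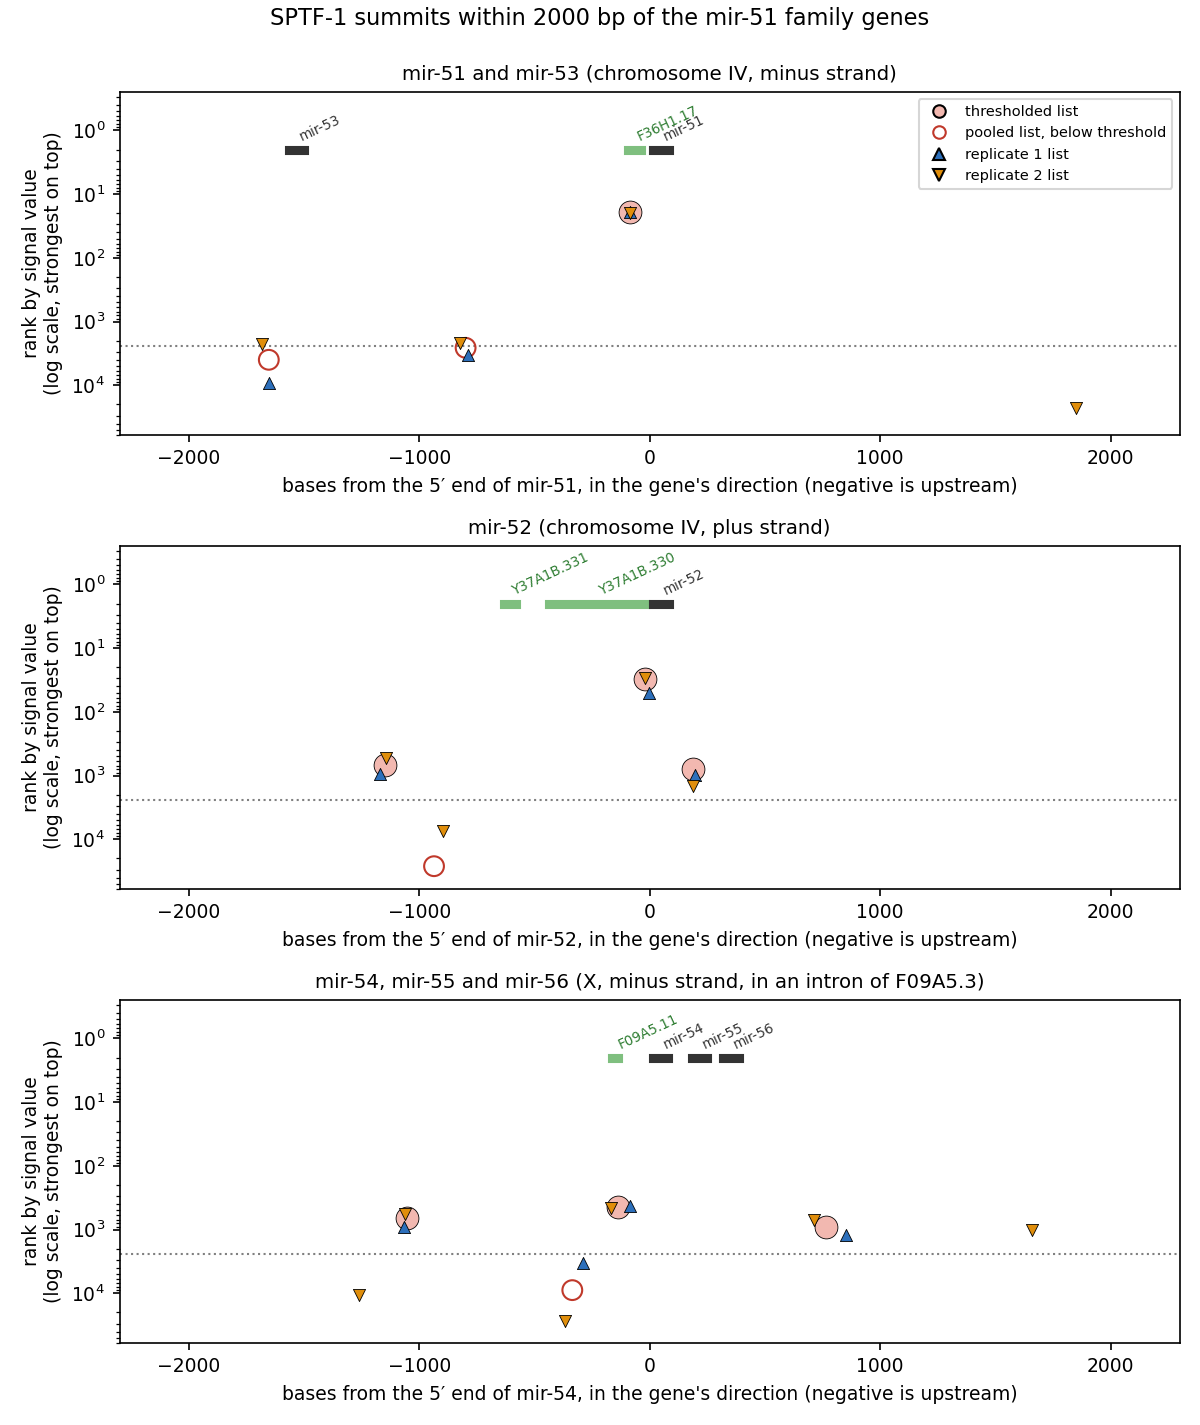
SPTF-1 summits within 2000 bp of the mir-51 family genes, with 1 panel per locus. The x axis is the distance in bases from the 5′ end of the named gene, the y axis is the rank of the region by signal value in its list on a log scale, black and green boxes are miRNA genes and ncRNA genes of the same strand, and the dotted line is rank 2430, the end of the thresholded list. A single high summit stands beside mir-51 (rank 19), while mir-52 and mir-54 each have a leading summit beside the hairpin and flanking ones on both sides.

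The summit beside mir-51 was the strongest near any miRNA gene. It lay at base 11026198 of chromosome IV, 86 bp upstream of the hairpin, in a region of 595 bp, with a signal value of 2216 at rank 19 of the thresholded list. The signal value is the authors' measure of enrichment in a region, and its scale is not given in the sources used here. Replicate 1 placed it at rank 19 with a signal of 1243, and replicate 2 at rank 20 with a signal of 980.1. The replicates' summits were 2 bp apart, where the median gap over all 2400 nuclear thresholded peaks matched in both replicates was 18 bp. Only 10 nuclear peaks had a higher signal, and 7 of these lay within 200 bp of a snoRNA, snRNA or rRNA gene.

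mir-53 had no thresholded summit of its own. The peak that gave it a place in the count is the mir-51 summit, 1395 bp beyond its 3′ side. A weaker region with its summit at base 11027765, 74 bp upstream of mir-53, was in the pooled list at rank 3986 with a signal of 179.0, below the last thresholded value of 218.9. Replicate 1 ranked it 9156 (signal 78.7) and replicate 2 ranked it 2275 (signal 104.8). Another region between the genes, at 11026911, stood closer to the threshold, at rank 2586 with a signal of 212.7, and its ranks were 3317 and 2140 in replicates 1 and 2. The neighbours mir-51 and mir-53 thus differed by 12.4 times in the pooled signal of the summit next to each hairpin. mir-52 and mir-53, whose mature sequences differ at 1 base, differed by 8.57 times in the same measure. Because the scale of the signal value is not given, its ratios here and below are not folds of binding.

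mir-52 had a leading summit and a weaker one on each side. The leading summit, at base 14033986 and 22 bp upstream of the hairpin, had a signal of 1534 at rank 31. It was at rank 50 in replicate 1 (signal 785.6) and at rank 29 in replicate 2 (signal 769.6). The upstream flank, at 14032858 and 1150 bp from the hairpin, had a signal of 407.0 at rank 685, with ranks of 956 and 540 in replicates 1 and 2. The other flank, at 14034195, 88 bp past the 3′ end of the gene, had a signal of 378.0 at rank 780, with ranks of 975 and 1466. This last summit and the leading one were called in a single interval, chrIV:14033575-14034382, which covers the whole mir-52 hairpin.

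The mir-54 to mir-56 cluster had summits of more even height. The strongest, at base 13145230 of X, had a signal of 507.9 at rank 439, and lay 136 bp upstream of mir-54, 306 bp upstream of mir-55 and 443 bp upstream of mir-56. Replicates 1 and 2 ranked it 427 (signal 289.9) and 465 (signal 227.8), with summits 87 and 167 bp upstream of mir-54. A further upstream summit at 13146149, 1055 bp from mir-54, had a signal of 414.1 at rank 663, with replicate ranks of 897 and 562. On the downstream side, a summit at 13144331, 360 bp past mir-56, had a signal of 349.7 at rank 897, with replicate ranks of 1228 and 706. The strongest signal of the cluster was therefore 1.45 times the weakest, while at mir-52 the leading summit was 4.06 times the weakest. A region at 13143436 was listed in replicate 2 at rank 1032 (signal 150.5), and no region of replicate 1 or of the pooled list overlapped it.

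The replicates' summits lay 2 bp apart at mir-51, 17 bp at mir-52 and 80 bp at mir-54. Over all matched peaks the 90th percentile of this gap was 83 bp, and the flank at 13144331, at 137 bp, was above it. Signals of the separate lists are not on one scale, so the log2 ratio of replicate 1 to replicate 2 was read against its median over all matched peaks, 0.35, with 5th and 95th percentiles of −0.33 and 1.06. It was 0.34 at mir-51, 0.03 at mir-52 and 0.35 at mir-54, all inside that range. The 4 flanking thresholded summits were inside it too, from −0.13 at 14032858 to 0.59 at 14034195. The matched peaks behind the range are all thresholded ones, so the usual spread of subthreshold regions is not part of it. Of the 4 subthreshold regions, 3 were outside it: the one beside mir-53, at −0.41, one at 13145430 upstream of mir-54, at 1.68 (pooled rank 8935), and one at 14033072 upstream of mir-52, at 1.54 (pooled rank 26478). The last value does not describe that region alone, since its nearest region in replicate 1, at rank 956, is the one matched to the flank at 14032858. The fourth, at 11026911, was inside it, at 0.08.

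**Figure D2:**
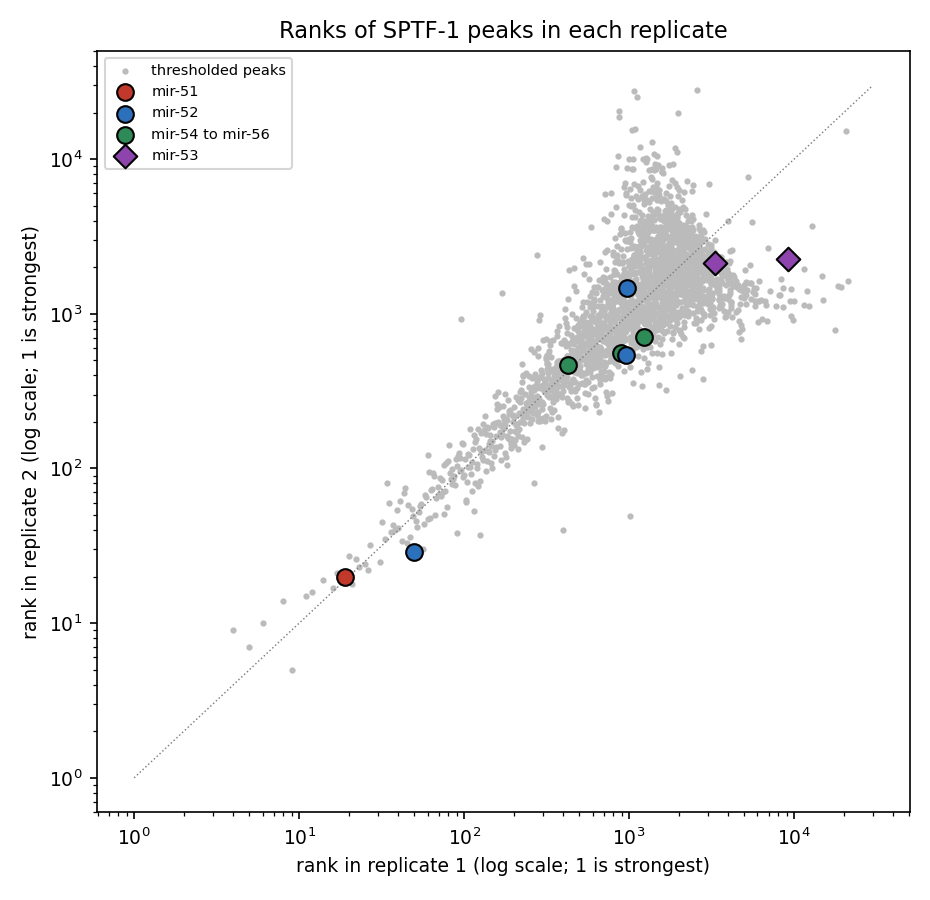
Rank of each thresholded peak in replicate 1 (x axis) and replicate 2 (y axis), both on log scales with 1 the strongest. Grey points are matched thresholded peaks, coloured circles are the 7 thresholded summits near family genes, purple diamonds are the 2 regions nearest mir-53 that are below the threshold, and the dotted line marks equal ranks. mir-51 lies on the line at ranks 19 and 20, and the mir-53 diamonds are the drawn family regions farthest toward weak ranks. The regions at 13145430 and 14033072, at pooled ranks 8935 and 26478, are not drawn.

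Outside the 2000 bp windows the nearest thresholded summit was far off at each locus. It was 43378 bp from mir-53, 44957 bp from mir-51 and 146408 bp from mir-52. For the X cluster it was 23373 bp from mir-56, and that peak was a strong one, at rank 33 with a signal of 1502. The farthest summit still counted for mir-53 was the mir-51 one at 1395 bp, and for mir-56 the one at 1362 bp.

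Among all miRNA genes the family held the first 3 places by the strongest summit within 2000 bp. mir-51 and mir-53 share the first value and mir-52 followed. The next value, 931.8 at rank 129, belonged to mir-1819 and mir-2212, whose shared summit was 1844 bp and 1991 bp away. mir-54, mir-55 and mir-56 stood lower, together with mir-55b, between mir-2215 (508.3) and mir-4927 (498.7). The 59 other miRNA genes with a summit ranged from 219.4 to 931.8 with a median of 355.0, and the median of all thresholded summits was 299.8. Of those 59 genes, 6 had their strongest summit within 200 bp upstream of the 5′ end, the position seen at mir-51, mir-52 and mir-54.

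**Figure D3:**
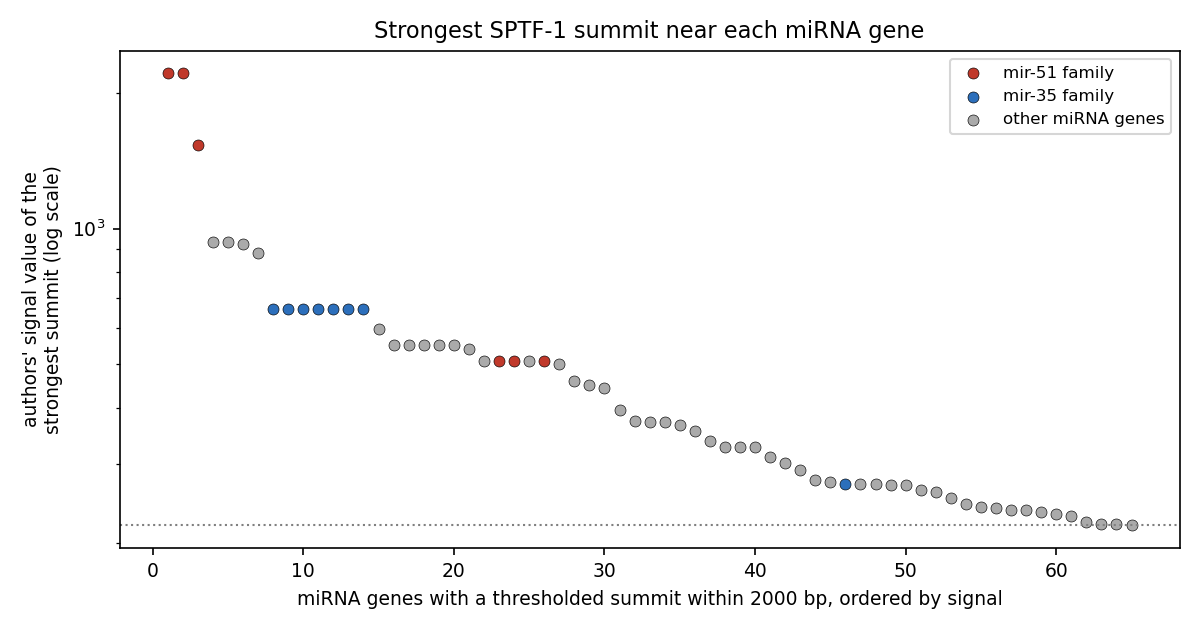
The 65 miRNA genes with a thresholded summit within 2000 bp, ordered along the x axis by the authors' signal value of the strongest such summit (y axis, log scale). Red points are the mir-51 family, blue points the mir-35 family and grey points other miRNA genes, and the dotted line is the lowest thresholded signal, 218.9. Genes that share a summit have equal values, as mir-51 and mir-53 do at 2216.

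The mir-35 family, the other miRNA family known to be required in the worm embryo, was set beside it. All 8 of its genes also had a thresholded summit within 2000 bp. mir-35 to mir-41 share the strongest one, with a signal of 662.7 at rank 260, which lay 262 bp upstream of mir-35 and 962 bp upstream of mir-41. mir-42 had its strongest at 269.8 (rank 1520), 237 bp upstream. The values at mir-51 and mir-52 were above those of every mir-35 family gene, but mir-51 and mir-52 were chosen for their high values. The values at mir-54 to mir-56 lay between the values of mir-35 to mir-41 and of mir-42.

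The annotation places other small transcripts under the members' summits. The mir-51 summit falls in F36H1.17, an 89-base ncRNA gene on the same strand that ends 18 bases before mir-51. The mir-52 summit falls in Y37A1B.330, an ncRNA gene of 448 bases on the same strand that ends 3 bases before the mir-52 hairpin, and in Y37A1B.335, an ncRNA gene of 149 bases on the opposite strand that runs into the hairpin. The mir-54 summit falls in F09A5.11, an ncRNA gene of 59 bases on the same strand. In replicate 1 alone that summit, at base 13145181, lay outside F09A5.11. By their positions in the thresholded list, all 3 leading summits and 4 of the 7 thresholded ones were thus inside an annotated ncRNA gene. That class held 340 of the 2419 nuclear summits (14.1%) and covers 1.09% of the nuclear genome. Which transcript a summit belongs to cannot be told apart at such distances.

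Protein-coding starts were not close. The nearest 5′ end of a protein-coding gene was 2987 bp from the mir-51 summit (hrg-5, a heme-responsive gene), 9794 bp from the mir-52 summit (Y37A1B.7) and 3629 bp from the mir-54 summit (F09A5.3). None of the 11 pooled summits near the members lay in an exon of a protein-coding gene. alh-3, of the aldehyde dehydrogenase family, ends 142 bases from mir-51, and hrg-5 lies 597 bases upstream of mir-53. Annotated tRNA, snoRNA and snRNA genes were also distant, the nearest being 18982 bp from a mir-52 flanking summit.

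The letters of F36H1.17 set the mir-51 summit apart from the others. Genes of transfer RNAs are transcribed by RNA polymerase III from promoter elements inside the gene, of which the B box carries the letters GGTTCGA and, after any pair of bases, CC. On the gene's strand these letters stood 34 bases after the mir-51 summit as GGTTCGACACC, bases 56 to 66 of F36H1.17. They were found in 165 of the 2419 nuclear summit windows of 300 bases (6.82%), in 145 of 233 windows within 200 bp of an annotated tRNA gene (62.2%) and in 20 of the 2186 others (0.915%). The mir-51 summit was the third strongest of those 20. In the window from 250 bases upstream to 50 downstream of each 5′ end, mir-51 was the only 1 of the 261 miRNA genes with a match, and 33 of 19973 protein-coding genes had one (0.165%).

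The ends of F36H1.17 also pair. Its first 7 bases can pair with the 7 before its last base, by 6 Watson-Crick pairs and 1 G-U pair. The ends of a tRNA pair in this way in its acceptor stem. Of the 1700 ncRNA genes of 60 to 110 bases, 11 had all 7 such pairs, 20 had the B box letters and F36H1.17 was the only one with both. Of 604 nuclear tRNA genes of the same lengths, 339 had both (56.1%). These counts did not ask how far the letters lay from the paired ends. In F36H1.17 the letters end at base 66 of 89, and this spacing was not compared with that of tRNA genes. The annotation does not call F36H1.17 a tRNA gene, and its transcription was not measured here. Both the letters and the end pairing were looked at after the sequence under the summit had been read. F36H1.17 was therefore bound to be counted, and being the only ncRNA gene with both is a description.

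Other motifs did not run through the family. The GC box core GGGCGG, the classical letters of Sp factors, was in the mir-54 window, 39 bases after the summit, and in the upstream flanking window of mir-52, 5 bases before the summit, but not in the leading windows of mir-51 and mir-52. It occurred in 17.2% of all summit windows, in 22.6% of miRNA start windows and in 7.83% of protein-coding start windows. GGGTGT, the CACC-type letters of the related KLF factors, was in the mir-51 window 44 bases before the summit, against 10.9% of summit windows. CTCCGCCC, an upstream element described for nematode miRNA genes, overlaps the GC box on its reverse strand. It was in no thresholded window of the family and stood 28 bases after the subthreshold summit at 13145430, against 4.13% of summit windows and 7.66% of miRNA start windows.

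The letters GAGAGA were in 4 of the 7 thresholded windows, against 44.8% of all summit windows and 24.1% of miRNA start windows. Those 4 were the leading windows of mir-52 (1 match) and mir-54 (2 matches) and the upstream flanking window of each. The windows of mir-51 and of the downstream flanks at 14034195 and 13144331 had none. Of the 4 windows below the threshold, those beside mir-53 and at 14033072 held the letters, and those at 11026911 and 13145430 did not. The 150 bases upstream of the hairpin were rich in C and T on the gene's strand at mir-52 (73.3%), mir-54 (71.3%), mir-53 (70.0%) and, less so, at mir-51 (62.0%), where the median of all miRNA genes was 54.0%. At mir-55 (56.0%) and mir-56 (52.0%), whose upstream bases hold the neighbouring hairpin of the cluster, the share was near that median. At mir-52 this share was above that of 99.2% of miRNA genes. The TATA box letters TATAAA were in 20.5% of summit windows, the splice acceptor letters TTTCAG in 24.3% and the run TTTTTT in 59.6%. The mir-52 leading window held TTTTTT, and the leading windows held no other match to these. Elsewhere, TATAAA stood 62 bases after the subthreshold summit beside mir-53, and its complement 68 bases before the one at 11026911. The flanking window at 14034195 held TTTCAG and TTTTTT.

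**Figure D4:**
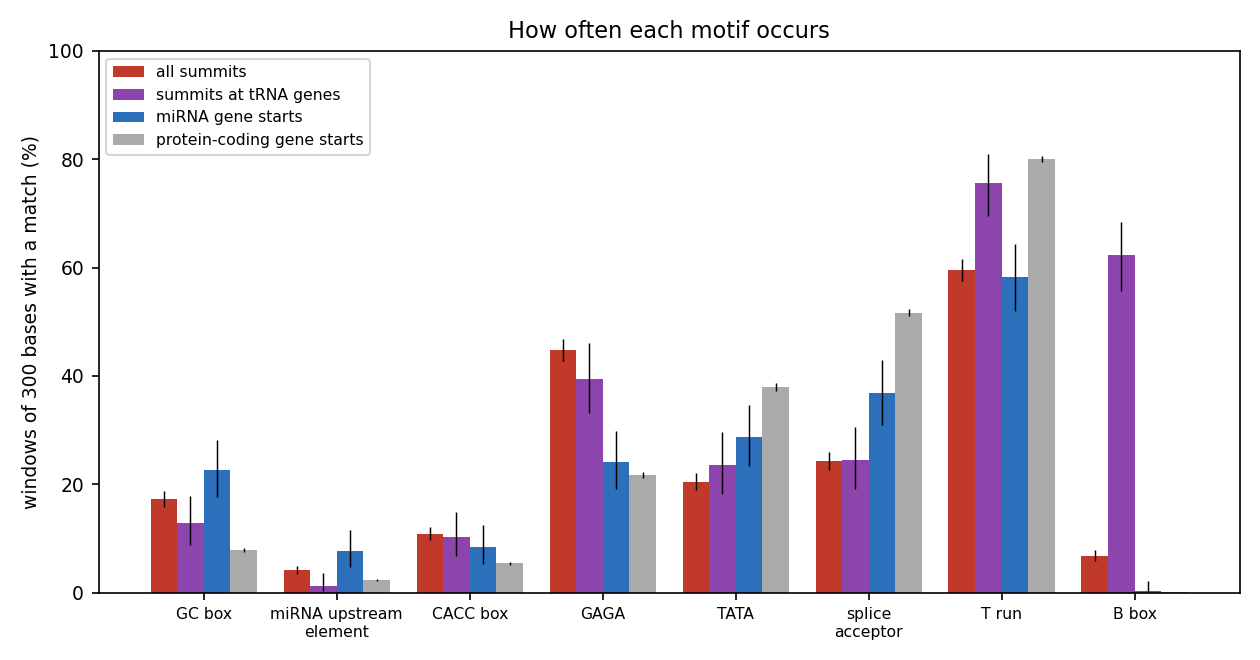
Percent of 300-base windows with at least 1 match to each motif on either strand (y axis), for all nuclear summits, summits within 200 bp of a tRNA gene, starts of miRNA genes and starts of protein-coding genes; error bars are exact 95% binomial intervals that cover counting error only. The B box letters stand at 62.2% near tRNA genes and at 0.383% at miRNA gene starts, where mir-51 is the single match.

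Base composition and repeats were read in the same windows. The leading windows had a GC content of 50.3% at mir-51, 46.7% at mir-52 and 55.3% at mir-54, against a median of 44.7% over all summit windows (5th to 95th percentile 32.3 to 56.3%). Of the thresholded windows, the one downstream of mir-56, at 59.3%, lay above that range. None of the 265 words of 36 bases in any of the 11 windows near members occurred elsewhere in the genome without a mismatch.

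The proteins that make and use miRNAs were examined as a list of 17 genes, of which 16 were found by name in the annotation. A promoter summit (at most 1000 bp before or 500 bp after a 5′ end) was present at 6 of the 16, against 1652 of 19973 protein-coding genes (8.27%). The list was chosen with earlier results of these data known, so the shares are a description. The summits of alg-1, cgh-1, nhl-2 and ain-1 lay from 764 to 962 bp before the 5′ end. The dcs-1 summit was 202 bp before it and the alg-2 summit 376 bp after it. The Argonautes alg-1 and alg-2, which hold miRNAs of the mir-51 family among others, had signals of 272.8 and 323.5, and the alg-1 summit was at rank 2484 in replicate 1 and 869 in replicate 2. ain-1, a GW182 homologue that binds these Argonautes, had 420.9. nhl-2, a TRIM-NHL cofactor of miRNA silencing, had the highest signal of the list, 627.6 at rank 286. cgh-1, a DEAD-box RNA helicase, had 336.5, with ranks of 3846 and 971 in replicates 1 and 2. dcs-1, a scavenger decapping enzyme, had 241.7, with ranks of 1249 and 5549. The summits of alg-1, cgh-1 and dcs-1 were thus each outside the first 2430 regions of 1 replicate. The Microprocessor genes drsh-1 and pash-1, dcr-1 (Dicer), ain-2, xrn-1, xrn-2, paxt-1, tsn-1, ccf-1 and pab-1 had no promoter summit, and neither had the target cdh-3. Every signal in the list was below those at mir-51 and mir-52, which were chosen for their high values, so nothing is read from this.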

How the data were processed

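SPTF-1 ChIP-seq regions of 2 biological replicates were read from the lists that the authors deposited for build ce11. Per the deposited lists, each region has a signal value, a −log10 q and a summit. The authors deposited 30000 regions for each replicate and for both pooled, and a thresholded list of 2430, identical to the first 2430 pooled regions. The aligner, caller, threshold rule and read depth are not given in the sources used here. In the deposited thresholded list 1725 regions tie at the highest −log10 q, so regions were ranked by signal, mitochondrial ones included. The ce10 lists were not used.

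Genes came from the WBcel235 annotation, Ensembl release 115, and sequences from the RefSeq genome of that build. A summit counted for a gene within 2000 bp of it, and matched a replicate's nearest summit within 250 bp. Motifs were searched on both strands of 300-base windows. Intervals are exact (Clopper-Pearson, 95%). The genes named were the members, their neighbours, the adjacent miRNA genes by signal, and the listed genes. The 6 members and all lists were chosen with earlier results of these data known. The search was checked on simulated data. Python 3.11.15, NumPy 2.4.6, SciPy 1.17.1, Biopython 1.88 and matplotlib 3.10.9 were used.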

Additional observations from a re-analysis of the deposited data

How the results depend on the processing

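All 6 genes kept a summit when any base of the region counted, with the weaker 50% of the thresholded peaks left out, in the whole pooled list and with either replicate left out. With 500 or 1000 bp, 5 genes remained (mir-53 dropped out), and with 200 bp 3 remained (mir-51, mir-52 and mir-54). The share of all miRNA genes with a summit, 24.9% in the report, was 5.75% within 200 bp, 13.0% within 500 bp, 16.5% within 1000 bp, 16.1% with the weaker 50% of peaks left out and 65.9% with any pooled region. Without replicate 1 or 2 it ran from 24.5 to 26.8%. Narrower windows hold fewer letters, and the share of summit windows with a motif fell at 75 and 50 bases each side to 12.4 and 9.14% for GGGCGG, 3.06 and 2.40% for CTCCGCCC, 6.90 and 4.71% for GGGTGT, 30.7 and 22.2% for GAGAGA, 6.82 and 3.80% for TATAAA, 8.56 and 5.00% for TTTCAG, and 30.5 and 17.4% for TTTTTT. For the letters added after the sequence was read, it fell to 6.24 and 4.59% for GGTTCGA and 5.08 and 3.47% for the whole B box. The 3 distinct leading summits gave 6 ranks in the replicate lists, of which 1 moved, that of mir-52 in replicate 1 (50 against 31). Pooled ranks are the thresholded ones by construction. No paired analysis was possible because there is 1 group. Read depth is unknown, so the absence of a thresholded summit beside mir-53 says only that none passed in these lists.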
